A study of Mus musculus with 2 samples.

Results

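Hepatocyte identity is held by a small network of transcription factors, and the RNA of 8 of their genes was compared here between 2 mouse hepatoma tumours. The genes are Hnf4a, Foxa1, Foxa2, Foxa3, Cebpa, Prox1, Nr5a2 and Onecut1, taken by gene name from a table of 54532 genes, 1469 of which it annotates with a transcription factor family. All 8 were found once and all 8 were measured, meaning a mean of 1 CPM or more (CPM is the count relative to the library's scaled total) over both libraries, as were 14775 genes in all. Each library came from a whole tumour grown in a C57bl/6 mouse from Hepa1-6, a mouse hepatocellular carcinoma line. One group is a single tumour from cells carrying a vector control-GFP-Puro lentivirus, and the other is a single tumour from cells carrying an IRF8-overexpression-GFP-Puro lentivirus. Both cell populations went into the same mouse, 1 on each side, so the mouse and the GFP and puromycin resistance cassette are common to both groups. The age and sex of the mouse, and whether each population was a clone or a pool, are not given in the sources used here. Host and tumour reads are both mouse and were not separated, and in whole tumours fewer cells of a type and less RNA per cell cannot be told apart.

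In liver cells these factors bind each other's genes as well as those of the plasma proteins and metabolic enzymes that a hepatocyte makes. FOXA proteins open chromatin in the early endoderm, HNF4A is the nuclear receptor most widely needed for hepatocyte gene expression, and C/EBP alpha drives maturation and metabolic genes. PROX1 and ONECUT1 (HNF6) act as the liver bud forms and as hepatocytes and bile duct cells separate, and NR5A2 (LRH-1) regulates bile acid and cholesterol genes.

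With 1 library per group no difference below has a replicate check, and no p-value was computed. The vector-labelled library summed to 20223649 counts and the IRF8-labelled one to 17316607. Irf8, the gene named by the labels, had 4178 and 2578 counts respectively (log2 ratio -0.51, 95% counting interval -0.58 to -0.44). This goes against the label, so the second library is called IRF8-labelled throughout, and each direction below rests on the labels. Liver genes were abundant in both, with 74718 and 32892 counts of Alb and 51825 and 16458 of Afp. Intervals cover counting error only and say nothing of the variation between tumours.

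The promoters of 3 of the 8 factors, Hnf4a, Foxa2 and Nr5a2, are shown first. With them are those of 2 plasma protein genes of the hepatocyte, Alb (2.0-fold lower in the IRF8-labelled library) and Fga (1098-fold lower). All 8 factors matched RefSeq's promoter table (build GRCm38.p6), which lists 13 starts for them, and each sequence is the 250 bases before a start. Foxa2 is shown at the outermost of its 3 starts, the one with a match, and the 2 left out hold none of the motifs searched. Hnf4a is shown at both of its starts, which lie 40.3 kb apart and are known as P2, the upstream one used in fetal liver and pancreas, and P1, the one used in adult liver. Gene counts add the transcripts of both starts together. Capitals mark matches on either strand to the ONECUT letters ATTGATT or the C/EBP letters TTGCNNAA. The 3 factors shown hold every match to these letters found among the 8. The promoter of Cebpa, not shown, holds none of the motifs searched.

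Hnf4a, upstream start (P2), chr2:163506607-163506856, plus strand: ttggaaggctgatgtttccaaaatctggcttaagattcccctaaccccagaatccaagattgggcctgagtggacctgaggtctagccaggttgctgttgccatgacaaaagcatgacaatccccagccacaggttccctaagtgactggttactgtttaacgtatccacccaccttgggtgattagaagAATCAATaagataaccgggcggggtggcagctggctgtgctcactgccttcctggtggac
Hnf4a, downstream start (P1), chr2:163546905-163547154, plus strand: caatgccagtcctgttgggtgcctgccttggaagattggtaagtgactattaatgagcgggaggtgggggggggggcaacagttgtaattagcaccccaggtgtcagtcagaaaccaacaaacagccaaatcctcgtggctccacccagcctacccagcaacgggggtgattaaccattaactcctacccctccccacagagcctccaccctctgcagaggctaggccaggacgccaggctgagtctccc
Foxa2, chr2:148046970-148047219, minus strand: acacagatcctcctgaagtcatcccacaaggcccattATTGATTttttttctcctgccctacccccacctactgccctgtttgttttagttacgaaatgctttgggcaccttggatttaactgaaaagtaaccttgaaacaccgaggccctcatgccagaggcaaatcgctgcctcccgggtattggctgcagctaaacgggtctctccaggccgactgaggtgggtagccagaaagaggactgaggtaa
Nr5a2, outer start, chr1:136960449-136960698, minus strand: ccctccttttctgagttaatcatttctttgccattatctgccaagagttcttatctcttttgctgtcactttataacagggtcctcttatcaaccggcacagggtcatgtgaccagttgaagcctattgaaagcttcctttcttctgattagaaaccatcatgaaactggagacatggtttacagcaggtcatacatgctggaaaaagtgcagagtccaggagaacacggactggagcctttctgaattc
Nr5a2, inner start, chr1:136953631-136953880, minus strand: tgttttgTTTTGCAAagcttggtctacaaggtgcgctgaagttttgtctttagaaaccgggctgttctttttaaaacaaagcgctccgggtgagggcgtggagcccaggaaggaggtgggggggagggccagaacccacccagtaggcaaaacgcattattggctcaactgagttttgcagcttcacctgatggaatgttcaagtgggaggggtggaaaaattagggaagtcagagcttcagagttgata
Alb, chr5:90460620-90460869, plus strand: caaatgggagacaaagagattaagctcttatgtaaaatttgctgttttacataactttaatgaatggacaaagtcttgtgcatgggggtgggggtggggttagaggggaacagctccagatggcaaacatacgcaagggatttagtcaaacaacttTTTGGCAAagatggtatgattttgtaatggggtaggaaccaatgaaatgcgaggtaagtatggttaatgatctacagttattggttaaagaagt
Fga, chr3:83025903-83026152, plus strand: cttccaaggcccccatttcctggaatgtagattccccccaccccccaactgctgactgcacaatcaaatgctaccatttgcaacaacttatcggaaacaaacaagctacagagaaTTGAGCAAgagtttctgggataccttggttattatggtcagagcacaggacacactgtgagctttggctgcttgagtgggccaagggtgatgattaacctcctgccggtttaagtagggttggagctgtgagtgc

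These letters are present in a small share of promoters. Of the 32851 promoter windows of this length in the table, 2.61% hold the ONECUT letters and 9.56% the C/EBP letters. Among the 13 windows of the 8 factors, the ONECUT letters were found in 2, in Hnf4a at 60 to 54 bases before P2 and in Foxa2 at 213 to 207 bases before its outermost start. The C/EBP letters were found in 1, at 243 to 236 bases before the inner Nr5a2 start. Of 4 further motifs searched, the FOXA letters TGTTTAC (3.17% of all windows) were in 1 of the 13 windows, that of Foxa1 itself. The IRF letters GAAANNGAA (7.13%) were in 2, those of Foxa1 and of the inner Prox1 start. The HNF4 letters CAAAGTCCA (0.384%) and the NR5A letters CAAGGTCA (1.33%) were in none. The C/EBP letters lie 94 to 87 bases before the start in the Alb window and 135 to 128 bases before it in the Fga window. Over the list of hepatocyte secreted proteins and enzymes, 19 of the 26 genes were matched to windows, 20 in all. Of these 20 windows, 8 hold the C/EBP letters, and that of Apoa1, not shown, holds none of the motifs searched. The list was written with earlier results of these data known. No match overlapped another in the windows shown. A match describes the letters and was not tested as a binding site.

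The 8 factors did not share 1 direction between the libraries. Nr5a2 was 2.11-fold lower in the IRF8-labelled library, Cebpa was 32.4% and Prox1 30.8% lower, Foxa2 was 32.3% higher, and Hnf4a, Foxa1, Foxa3 and Onecut1 had counting intervals that held no difference. By the size rule (a measured gene with a log2 ratio of at least 1 in size and a counting interval that excludes 0), 1 of 8 was lower, beside 2.77% of all measured genes, and 0 of 8 were higher, beside 2.59%. The interval alone lay below 0 for 3 of 8, beside 25.8% of measured genes, and above 0 for 1 of 8, beside 23.5%. With 8 genes, these counts were not read as a result about the set. The median log2 ratio of the 8 was -0.0019, against -0.0012 over all measured genes and 0.071 over the 959 measured transcription factor genes.

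**Figure D1:**
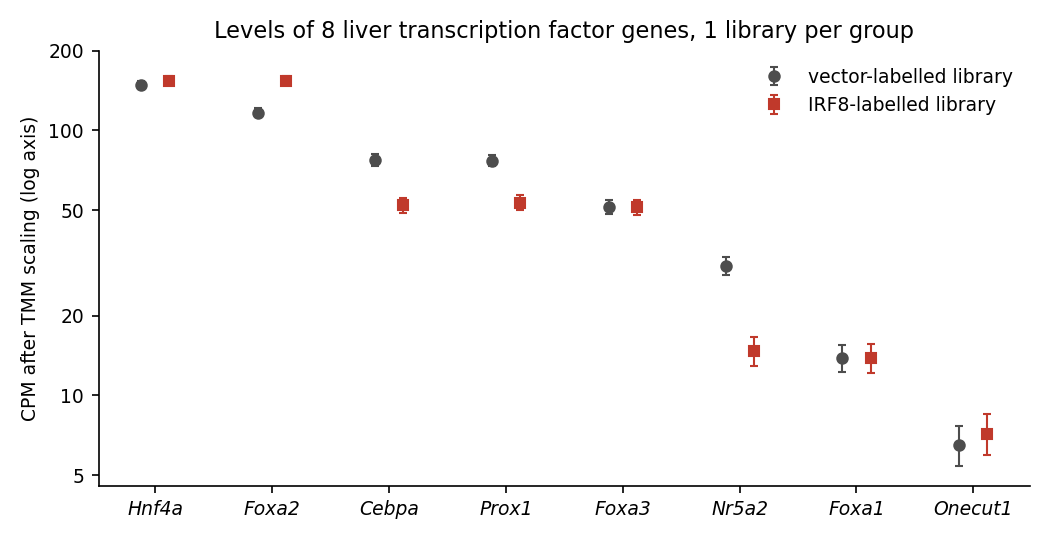
Level of each factor in the vector-labelled library (grey circles) and the IRF8-labelled library (red squares), in CPM after TMM scaling on a log axis; bars are 95% exact Poisson intervals of a single library. Nr5a2 is at 30.8 and 14.6 CPM and Foxa2 at 116.7 and 154.3, while the bars of Hnf4a, Foxa3, Foxa1 and Onecut1 overlap.

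Hnf4a, the nuclear receptor at the centre of the network (ENSMUSG00000017950, mm10 chromosome 2, 163506808 to 163572910, plus strand), was read 2957 times in the vector-labelled library and 2706 times in the other. With 95% exact Poisson intervals, its level was 148.3 CPM (143.0 to 153.7) against 154.1 CPM (148.4 to 160.0), which overlap. The log2 ratio was 0.056, and its 95% counting interval of -0.020 to 0.13 corresponds to 0.986-fold to 1.10-fold of the vector-labelled level. Its paralogue Hnf4g, best known from gut and kidney, had 36 and 21 counts (log2 ratio -0.55, -1.44 to 0.22). Per kilobase of exon, Hnf4a stood at 30.7 and 31.9 CPM against 0.686 and 0.455 for Hnf4g.

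Of the 3 FOXA genes, Foxa2 was higher in the IRF8-labelled library, and the intervals of Foxa1 and Foxa3 held 0. Foxa2, a pioneer factor of endoderm and liver (ENSMUSG00000037025, chromosome 2, 148042877 to 148046969, minus strand), had 2327 and 2709 counts. These are 116.7 CPM (112.0 to 121.5) for the vector label and 154.3 CPM (148.5 to 160.2) for the IRF8 label, and the intervals do not overlap. The log2 ratio was 0.40 (0.32 to 0.48), a level 32.3% higher, and 86.5% of measured genes had a lower ratio. Foxa3, the member with the strongest link to metabolic genes of the mature liver (ENSMUSG00000040891, chromosome 7, 19013284 to 19023538, minus strand), had 1025 and 900 counts, or 51.4 CPM (48.3 to 54.6) and 51.3 CPM (48.0 to 54.7). Its log2 ratio was -0.0035 (-0.13 to 0.13). Foxa1, which overlaps with Foxa2 in starting liver development (ENSMUSG00000035451, chromosome 12, 57540628 to 57546916, minus strand), had 275 and 242 counts, or 13.8 CPM in each library, with a log2 ratio of -0.00035 (-0.26 to 0.25). The interval of Foxa1 is wider because its counts are lower.

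Per kilobase of exon, the share of Foxa2 in the summed FOXA level was 62.6% with the vector label and 68.96% with the IRF8 label. Foxa3 made up 32.1% and 26.7%, and Foxa1 5.27% and 4.39%. Foxa2 therefore stood 1.95-fold over Foxa3 in the first library and 2.59-fold in the second, and 11.9-fold and 15.7-fold over Foxa1. Among the 24 measured genes that the table assigns to the forkhead family, Foxa2 had the highest level per kilobase in both libraries.

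Cebpa was lower in the IRF8-labelled library. This leucine zipper factor of hepatocyte maturation, which also acts in granulocytes and fat cells (ENSMUSG00000034957, chromosome 7, 35119293 to 35121928, plus strand), had 1541 and 917 counts. These are 77.3 CPM (73.4 to 81.2) and 52.2 CPM (48.9 to 55.7), which do not overlap. The log2 ratio was -0.56 (-0.68 to -0.45), a level 32.4% lower, and 6.48% of measured genes and 4.28% of measured transcription factor genes had a lower ratio. Its paralogues differed in direction. Cebpb, active in the acute phase and in regenerating liver, had a log2 ratio of -0.25 (-0.35 to -0.16), Cebpg of -0.14 (-0.24 to -0.05) and Cebpd, another acute phase factor, of 0.41 (0.24 to 0.58). Per kilobase, Cebpb exceeded Cebpa in both libraries, at 73.3 against 29.3 and at 61.5 against 19.8 CPM.

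Because Cebpa is also made by fat and myeloid cells, the markers of those cells stand beside it. Of 8 adipocyte markers, 7 were measured, 5 were at least 2-fold higher and none lower, beside 2.59% and 2.77% of all measured genes. The list's median log2 ratio of 1.60 became 0.50 when genes under 5 CPM were dropped. The markers summed to 63.1 CPM with the vector label and 119.0 CPM with the IRF8 label, with Lep at 0 and 1 counts. Fabp4 alone was at 29.3 and 61.0 CPM. Of 10 myeloid and granulocyte markers, 7 were measured, with 1 interval above and 1 below 0 and summed levels of 285.8 and 267.5 CPM. Mpo had no count and Elane 1 count in all. The part of these cells in the Cebpa difference was not tested.

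Nr5a2 showed the largest difference of the 8. This orphan nuclear receptor of bile acid and cholesterol regulation (ENSMUSG00000026398, chromosome 1, 136842571 to 136960448, minus strand) had 615 and 257 counts, or 30.8 CPM (28.4 to 33.4) and 14.6 CPM (12.9 to 16.5). These levels do not overlap, and it was 2.11-fold lower in the IRF8-labelled library (1.82 to 2.45). Its log2 ratio of -1.07 (-1.29 to -0.86) passes the 2-fold line, but the interval also holds differences smaller than 2-fold. Of all measured genes 2.498% had a lower ratio, and of measured transcription factor genes 1.36%. Its close relative Nr5a1, the steroidogenic factor of adrenal and gonad, had no count in either library. Nr0b2 (SHP), a corepressor whose gene NR5A2 is known to activate, had 29 and 4 counts, 6.38-fold lower (2.24 to 24.98), with a mean level under 1 CPM.

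Prox1 was lower by nearly the same margin as Cebpa. This homeobox factor of hepatoblasts, also the identity factor of lymphatic endothelium (ENSMUSG00000010175, chromosome 1, 190118035 to 190170714, minus strand), had 1536 and 936 counts, or 77.01 CPM (73.2 to 81.0) in the vector-labelled library against 53.3 CPM (49.95 to 56.8), with no overlap. Its log2 ratio stood at -0.53 (-0.65 to -0.41), a level 30.8% lower, and 7.12% of measured genes had a lower one. Over all measured genes, 23.5% of intervals lay above 0 and 25.8% below. Of 8 lymphatic endothelial markers, 5 were measured, with 2 intervals above 0 (Flt4 and Sox18), 2 below (Pdpn and Nrp2) and 1 that held 0 (Lyve1). Summed over the list, levels were 177.8 and 164.3 CPM, and Ccl21a, one of its defining markers, had 0 and 4 counts. Flt4 had 1559 and 1622 counts, Nrp2 1744 and 992. The part of lymphatic vessels in the Prox1 difference was not tested.

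Onecut1, which acts in bile duct and hepatocyte differentiation (ENSMUSG00000043013, chromosome 9, 74861921 to 74891781, plus strand), was the least abundant of the 8, with 129 and 125 counts. Its levels of 6.47 CPM (5.40 to 7.68) and 7.12 CPM (5.93 to 8.48) overlap, and the log2 ratio was 0.14 (-0.23 to 0.50). At this depth a difference of up to 1.42-fold up or 1.17-fold down is within counting error. Onecut2, its paralogue in liver development, was the more abundant of the pair, with 1543 and 945 counts, or 5.78 and 4.02 CPM per kilobase against 1.57 and 1.73 for Onecut1. The log2 ratio of Onecut2 was -0.52 (-0.64 to -0.41). Bile duct cells express Onecut1 too. Of 8 cholangiocyte markers 7 were measured, with 4 intervals above 0 and 1 below, beside 23.5% and 25.8% of all measured genes. The list summed to 577.7 and 717.1 CPM, with Cftr at 0 in both libraries. The part of bile duct cells was not tested.

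**Figure D2:**
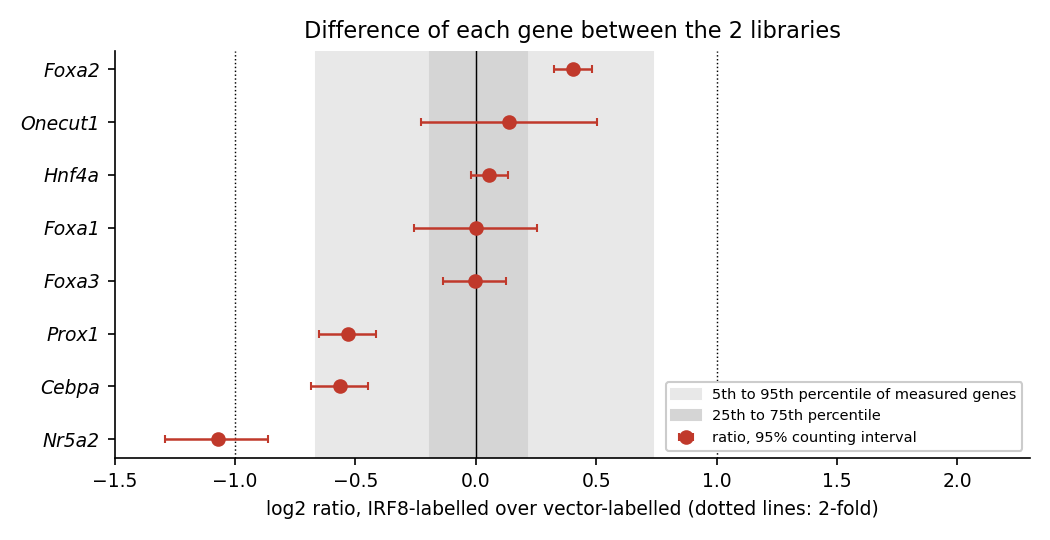
Log2 ratio of each factor, IRF8-labelled over vector-labelled library, with 95% counting intervals; the dark and light bands hold the middle of all 14775 measured genes (25th to 75th and 5th to 95th percentiles). Nr5a2 at -1.07 lies left of the light band, Cebpa, Prox1 and Foxa2 lie between the bands' edges, and the other 4 lie in the dark band.

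Ratios between factors within a library do not depend on how the libraries are scaled. Of the 28 pairs among the 8 genes, 20 had a 95% exact conditional interval for the ratio of ratios that excluded 0 on the log2 scale. The share among pairs of all measured genes was not computed. Taken singly, 23.5% of measured genes had intervals above 0 and 25.8% below. The 28 pairs reuse the same 8 genes, so their count was not read as a result about the set. The widest contrast was that of Foxa2 with Nr5a2, whose ratio was 2.79-fold higher with the IRF8 label (log2 1.48, 1.25 to 1.71). The ratio of Foxa2 to Cebpa was 1.96-fold higher (log2 0.97, 0.82 to 1.11) and that of Hnf4a to Cebpa 1.54-fold (log2 0.62, 0.48 to 0.76). The 8 pairs whose interval held 0 were Cebpa with Prox1, the 3 pairs among Hnf4a, Foxa1 and Foxa3, and Onecut1 with Hnf4a, Foxa1, Foxa2 and Foxa3. Cebpa and Prox1 differed by -0.034 (-0.20 to 0.13), while each of them differed from Nr5a2 by 0.51 (0.26 to 0.76) and 0.54 (0.30 to 0.79).

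The order of the factors by level differed in 2 places. In CPM per kilobase of exon, the vector-labelled library ran Foxa2 (49.2), Hnf4a (30.7), Cebpa (29.3), Foxa3 (25.2), Prox1 (9.18), Nr5a2 (5.23), Foxa1 (4.14) and Onecut1 (1.57). Of these neighbours, only Hnf4a (29.6 to 31.8) and Cebpa (27.9 to 30.8) had counting intervals that overlap. In the IRF8-labelled library Foxa2 stood at 65.1, Hnf4a at 31.9, Foxa3 at 25.2, Cebpa at 19.8, Prox1 at 6.35, Foxa1 at 4.14, Nr5a2 at 2.48 and Onecut1 at 1.73, with no overlap between neighbours. Cebpa thus stood below Foxa3, and Nr5a2 below Foxa1, in the second library alone. The summed level of the 8 was 154.6 and 156.7, a ratio of 1.01. Foxa2 supplied 31.8% of that sum in the first library and 41.5% in the second, and Cebpa 19.0% and 12.6%.

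Among the 959 measured transcription factor genes ranked by level per kilobase, Foxa2 ranked 26 and 17 (vector-labelled library first), and Hnf4a at 51 and 49. Foxa3 was at 77 and 79. Cebpa ranked 57 and 112, Prox1 271 and 358, and Nr5a2 400 and 618. Foxa1 was at 457 and 469 and Onecut1 at 693 and 705. The family annotation is the deposited table's and leaves some factors out, Cebpd among them. Of these 959 genes, 1.67% met the size rule as lower and 1.98% as higher.

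**Figure D3:**
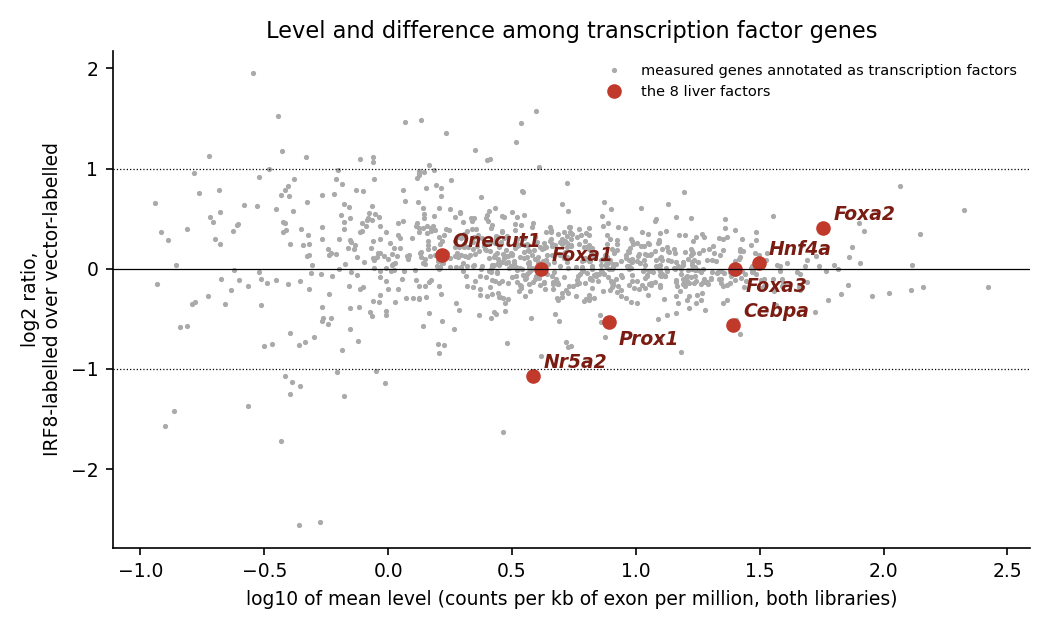
Each point is 1 of the 959 measured genes annotated as transcription factors, placed by the log10 of its mean level per kilobase of exon and its log2 ratio, IRF8-labelled over vector-labelled; red points are the 8 liver factors and dotted lines mark 2-fold. Foxa2 and Hnf4a lie among the abundant factors, and Nr5a2 at -1.07 is the one red point beyond a dotted line.

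Other transcription factors of the liver were close to the 8 in their spread. Of 25 listed, 22 were measured, with a median log2 ratio of -0.020. Of those, 6 had intervals above and 9 below 0, beside 23.5% and 25.8% of all measured genes. By the size rule 1 was higher and 1 lower, beside 2.59% and 2.77%. The higher one was Mlxipl (ChREBP), which responds to carbohydrate, with 219 and 578 counts, 3.00-fold higher (2.56 to 3.52). The lower one was Klf15, a factor of fasting metabolism, with 75 and 29 counts, 2.28-fold lower (1.46 to 3.63). Gata6, an endoderm factor, was at 0.90 (0.28 to 1.62) and Nr2f1 at 0.73 (0.07 to 1.49). The bile acid receptor gene Nr1h4 was at -0.07 (-0.42 to 0.28) and Ppara, a factor of fatty acid oxidation, at -0.60 (-1.25 to -0.02).

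Among 16 paralogues and partners of the 8, 12 were measured, with a median of -0.15. Of those 12, 0 met the size rule as lower or higher, beside 2.77% and 2.59% of all measured genes. Intervals lay below 0 for 7 and above 0 for 1, beside 25.8% and 23.5%. Nr0b2, described above, is among the unmeasured. Among the measured, the largest ratios belonged to Prox2, at -0.75 (-1.75 to 0.06), Hnf4g, Onecut2 and Cebpd. The corepressor Ncor1 was at -0.09 (-0.15 to -0.02) and the histone deacetylase Hdac3 at -0.16 (-0.26 to -0.06), both chosen after their values were seen.

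Measured genes known as targets of these factors ran over a wider range of ratios than the factors. Taken once each, 43 genes of 4 target lists gave 29 measured ones, of which 12 met the size rule as lower and 3 as higher, beside the 2.77% and 2.59% of all measured genes. Their log2 ratios ran from -5.56 to 5.22 with a median of -0.62, while the 8 factors ran from -1.07 to 0.40. In all, 12 of the 29 lay below the lowest factor and 4 above the highest. The filter uses the mean of both libraries, so a gene high in 1 library alone passes it. Fabp1 (15.7 and 0.23 CPM) and Pck1 (0.05 and 5.75 CPM), at either end of the range, passed this way. All 8 factors were above 1 CPM in both libraries, so the ranges were not compared on equal terms. The lists were written with earlier results of these data known and share genes, so their counts are not independent of each other.

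Most measured HNF4A targets, 12 of 17, had intervals below 0, beside 25.8% of all measured genes, while the interval of Hnf4a itself held 0. Of the 22 listed, 17 were measured, and of those 9 met the size rule as lower and 1 as higher, beside 2.77% and 2.59% of all measured genes. The targets' median was -1.38. Fabp1, a fatty acid carrier, was read 313 and 4 times, 68.9-fold lower (26.6 to 254.4). For Apoa2 the counts were 317 and 10, 27.9-fold lower (15.0 to 58.8), and for Ces2e, a carboxylesterase, 263 and 13, 17.8-fold lower (10.2 to 33.9). Cyp2e1 was the higher one, with 6 and 61 counts (11.6-fold, 5.01 to 32.7). Of the lower ones, Fabp1, Apoa2, Ces2e and F9 were under 1 CPM in the IRF8-labelled library. Cyp2e1 was under 1 CPM in the vector-labelled one. These genes passed the filter through 1 library alone. Apob, itself a target, was at 0.10 (0.05 to 0.15).

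Of 9 measured FOXA targets, 3 were lower by the size rule and 1 higher, beside 2.77% and 2.59% of all measured genes. The targets' median of -0.099 became -0.55 when low counts were kept in, and also when genes under 5 CPM were dropped. Ttr was 2.94-fold lower (2.59 to 3.34) and Afp 2.77-fold (2.72 to 2.82). Tat, a tyrosine-degrading enzyme, had 112 and 3 counts (32.9-fold lower, 10.96 to 161.8), and Pck1, a gluconeogenic enzyme also made in fat, had 1 and 101 (114.7-fold higher, 20.1 to 4576). Tat and Pck1 each passed the filter through 1 library alone.

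Beside 2.77% and 2.59% of all measured genes, C/EBP alpha targets were split, with 8 measured, 2 lower by the size rule and 2 higher. Their median of -0.40 was -0.9996 without the genes that are also adipocyte, muscle or myeloid markers. Cps1, the entry enzyme of the urea cycle, had 53 and 0 counts. With the 0 set to 3 counts it was 15.6-fold lower in the IRF8-labelled library, and its counting interval starts at 12.2-fold lower. With Cps1 set to 3 counts the median was also -0.40. Cps1, and Tat and Pck1 of the same list, passed the filter through 1 library alone. Fabp4, a fat cell carrier protein, had 585 and 1071 counts (2.08-fold higher, 1.88 to 2.304). Only 2 of 10 NR5A2 targets were measured, Apoa1 at -2.28 (-2.44 to -2.13) and the lipoprotein receptor gene Scarb1 at -0.39 (-0.50 to -0.27). Cyp7a1, the rate-limiting enzyme of bile acid synthesis and the best known of them, had no count in either library.

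The broader list of hepatocyte secreted proteins and enzymes had 23 measured genes, 17 of them lower by the size rule and 2 higher. Of all measured genes, 2.77% were lower and 2.59% higher. The list's median was -3.21, also with genes at 0 counts set to 3. Fga, a fibrinogen chain whose promoter is shown above, was read 4992 and 4 times, 1098-fold lower (428.8 to 4033). The other extremes were Ahsg (2187 and 7 counts), Kng1 (668 and 1) and Itih3 (258 and 0). Each of them, and Fga, was under 1 CPM in the IRF8-labelled library and passed the filter through the other library alone. The same held for Apoa2, Apoh, Plg, Fabp1, Cps1 and Tat. The 2 higher genes, Pck1 and Cyp2e1, passed through the IRF8-labelled library alone. The fibrinogen chains Fgg and Fgb were 69.9-fold (45.1 to 114.7) and 9.29-fold (8.81 to 9.81) lower, and Alb was at -0.9996 (-1.02 to -0.98), just short of the 2-fold line. Of 8 skeletal muscle markers, 8 were higher by the size rule, beside 2.59% of all measured genes, with sums of 7.12 and 284.6 CPM. At the first sum not all 8 reached 1 CPM. Those below it passed the filter through the IRF8-labelled library alone. Blood endothelial markers summed to 125.7 and 125.4 CPM, with 2 intervals above and 1 below 0 among 6. Gut and pancreas markers had 3 of 8 measured, led by Cdh17 with 13630 and 9479 counts. The part of the tissue mix in the differences of the 8 factors and their targets was not tested. RNA counts do not measure the amount or activity of the factors' proteins.

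**Figure D4:**
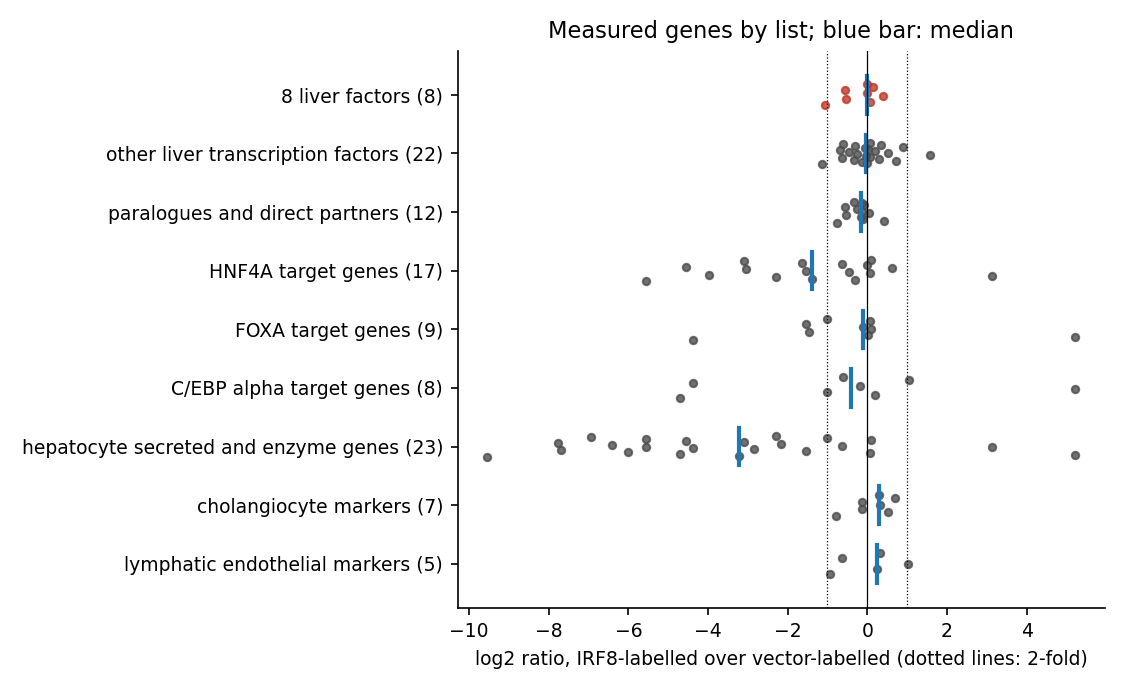
Log2 ratio, IRF8-labelled over vector-labelled, of each measured gene by list, with the number measured in brackets, a blue bar at the median and dotted lines at 2-fold; the red points are the 8 liver factors. The factors lie between -1.07 and 0.40, whereas the target lists reach down to -5.56 and the hepatocyte list to -9.55. The genes at these lowest values passed the filter through the vector-labelled library alone.

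Genes that lie over or beside the 8 had few counts for the most part. The labels name a library kit without strand marking, and antisense reads therefore cannot be separated from a factor's own. Hnf4aos, antisense to Hnf4a, had 3 and 0 counts, Gm45091, over the start of Cebpa, had 8 and 15, and Prox1os had 10 and 6. Beside Onecut1, the noncoding Gm16551 had 20 and 3 counts. The abundant neighbours were Sympk, a polyadenylation factor starting within 20 kb of Foxa3, at -0.12 (-0.19 to -0.04), and Irf2bp1, on the other side of Foxa3, at 0.22 (0.10 to 0.34). Ttc6 near Foxa1 had 21 and 10 counts and R3hdml near Hnf4a 48 and 61.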

How the data were processed

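RNA from 2 whole tumours, 1 per group, was sequenced. The authors' deposited table holds raw counts per gene, with symbols, mm10 coordinates, exon length, biotype and transcription factor family. HISAT2 2.0.5, featureCounts 1.5.0-p3 and mm10 are named per the submitters' processing notes, and how reads with several matches were handled was not given in the sources used here. For the 8 factors the deposited length equals the merged exons of GENCODE M21, and the coordinates are the same.

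Counts were scaled by TMM (edgeR 4.0.16, R 4.3.3). Log2 ratios use a prior count of 2, folds use scaled counts without it. Measured genes had a mean CPM of 1 or more, and a count of 0 was set to 3 counts for folds. Levels carry 95% exact Poisson intervals, ratios 95% Clopper-Pearson intervals of the share of counts, and pairs of genes exact conditional intervals. PCR copies were not marked, so these cover counting error only. The steps were tested on simulated data. With 1 library per group no test was made.

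The 8 genes and all lists were chosen with earlier results of these data known. Named genes are the 8, up to 4 of each list with the largest ratios among measured genes, genes fixed by name (some not reported here), genes overlapping the 8 or starting within 20 kb, and the 2 protein-coding genes nearest to each in log2 CPM. Others named are Fgg, Fgb, Ncor1, Hdac3, Cebpg, Flt4, Elane, Mpo, Lep, Cftr, Ccl21a, Nr5a1, F9, Apoh and Plg, chosen after their values were seen. Alternatives were other scalings (DESeq2 1.42.0 size factors among them), prior count, filters, fold and thinning.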

Additional observations from a re-analysis of the deposited data

How the results depend on the processing

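The 48 log2 ratios of the 8 factors under 6 other settings all stayed inside the counting interval of the main value, and Nr5a2 ranged from -1.09 to -1.03, Cebpa from -0.59 to -0.52, Prox1 from -0.55 to -0.49 and Foxa2 from 0.38 to 0.44. Scaling by total counts put 2 factors above 0 by interval, since Hnf4a joined Foxa2 at 0.096. The ratios of Foxa1 (-0.022 to 0.039) and Foxa3 (-0.026 to 0.036) took either sign. Apart from that count, 41 of 42 counts and medians of the 8 kept within their limits. Of 137 list medians, 10 moved, among them those of HNF4A targets (-1.17 without a filter, -1.59 at 5 CPM or more) and of adipocyte markers (0.50 at 5 CPM or more). Over all genes, 383 higher and 410 lower calls became 814 and 719 without a filter, 119 and 179 at 5 CPM or more and 1025 and 822 at 1.5-fold. One scaling, TMM without muscle, adipocyte and hepatocyte list genes, was chosen after seeing the data. No paired analysis was possible because each group has 1 library. Depth limits Onecut1 and Foxa1 most, with 125 to 275 counts.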

Other observations

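With 2 libraries, the likeness of genes rests on their level and a single ratio. By distance in log2 CPM over both libraries, the protein-coding gene nearest to Cebpa was Prox1 (0.030), with Onecut2 next (0.043), and the nearest to Prox1 were Onecut2 (0.015) and Sall1 (0.026), a zinc finger factor with 1509 and 939 counts. The nearest to Hnf4a were Ppp1r12a (0.017) and Itgax (0.023), and to Foxa2 Zfp445 (0.049) and Ibtk (0.056). Nr5a2 had no neighbour as near, the closest being Ccdc85c (0.11) with 576 and 266 counts and Prrg4 (0.16). For Foxa1 they were N4bp2l1 (0.0059) and Fahd1 (0.0079), for Foxa3 Fbxo18 (0.011) and Ints5 (0.012), and for Onecut1 Pdss1 (0.022) and Tmub1 (0.032).

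Within the forkhead family of the deposited table, 24 of 44 genes were measured, 10 with intervals above and 8 below 0. Of all measured transcription factor genes, 28.5% had intervals above and 18% below 0, and of all measured genes 23.5% and 25.8%. Chosen after their values were seen, Foxp3, of regulatory T cells, had 67 and 28 counts (log2 ratio -1.03, -1.77 to -0.42) and Foxq1 1014 and 1399 (0.65, 0.53 to 0.77).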
